A study of Mus musculus with 19 samples.

Results

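Counts of miR-146a, miR-146b and miR-155 were followed in small RNA libraries of the mouse hippocampal CA1 subregion, whose pyramidal neurons are central to memory. The members were all listed miRNAs whose name starts with one of these 3 names, both arms included, which gave 6 of the 1148 listed miRNAs. The 19 libraries came from wild-type animals of the strain labelled C57B/6JRj, in 3 groups. Young vehicle animals (8 libraries) were 3 months old and drank water with 18 g per L of cyclodextrin, the vehicle. Aged vehicle animals (5 libraries) were 20 months old and drank the same. Aged SAHA animals (6 libraries) were 20 months old and drank the vehicle with 0.67 g per L of SAHA (vorinostat), an inhibitor of histone deacetylases. The aged animals were treated for 4 weeks. Cyclodextrin was thus given to every group, and no group of young animals received SAHA. Sex, sequencing batch and the number of animals behind a library are not given in the labels, so p-values measure only the spread between these libraries.

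miR-146a is induced by NF-kB, the transcription factor of innate immune signalling. It represses mRNAs of the adaptors Irak1 and Traf6 upstream of NF-kB, which closes a feedback loop, and miR-146b shares its seed. miR-155, made from the noncoding transcript Mir155hg, is also induced by inflammatory signals and represses restraints on cytokine signalling such as Socs1. In brain, miR-155 is known from microglia, the resident macrophages, and miR-146a from microglia, astrocytes and neurons.

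The mature sequences are shown because the 2 miR-146 members with most counts are almost the same molecule, which bears on how their counts can be told apart. All 6 members matched a RefSeq mature sequence of the GRCm38.p6 build. Each is written 5′ to 3′, with the seed, bases 2 to 8, in capitals.
miR-146a-5p: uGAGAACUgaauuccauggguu
miR-146b-5p: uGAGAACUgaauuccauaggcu
miR-155-5p: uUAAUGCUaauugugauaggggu
miR-146a-3p: cCUGUGAAauucaguucuucag
miR-146b-3p: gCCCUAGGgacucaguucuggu
miR-155-3p: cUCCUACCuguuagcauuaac
miR-146a-5p and miR-146b-5p share the seed GAGAACU, and in the RefSeq table no other mature miRNA has it. The seed of miR-155-5p, UAAUGCU, was found in no other entry. Counted from the 5′ end, miR-146a-5p and miR-146b-5p are identical over 17 bases and differ by G18A and U21C, with the base of miR-146a-5p first. Reads that end before base 18 therefore cannot be assigned to one of them. The labels do not say how the authors handled reads with several matches, so the split between these 2 miRNAs carries that uncertainty. The 3p arms, at 4 of 22 positions the same, do not share this problem.

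The hairpins are shown to place the arms, with the mature sequences in capitals, in RefSeq coordinates of GRCm38.p6 and with genes from GENCODE M21. The deposited counts were made on mm10, the same assembly.
Mir146: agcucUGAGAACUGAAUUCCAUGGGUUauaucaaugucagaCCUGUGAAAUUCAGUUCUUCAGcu
Mir146b: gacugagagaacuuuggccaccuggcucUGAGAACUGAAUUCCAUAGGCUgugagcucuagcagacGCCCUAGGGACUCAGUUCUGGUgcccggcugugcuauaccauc
Mir155: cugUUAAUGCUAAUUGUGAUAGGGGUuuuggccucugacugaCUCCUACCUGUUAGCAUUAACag
Mir146, the precursor of both miR-146a arms, lies on the minus strand at chr11:43374397-43374461, outside other annotated genes. Mir146b lies on the plus strand at chr19:46342762-46342870, in an intron of Mfsd13a on the same strand. Mir155 lies on the plus strand at chr16:84714140-84714204, in an exon of its host Mir155hg. The 3 members therefore come from separate chromosomes.

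Library totals ran from 3585489 to 6808281 counts assigned to miRNAs. Aged SAHA 1 stood apart: its median r of log2 CPM with the other libraries of its group was 0.989, against 0.992 to 0.996 for the other 18 libraries. CPM are counts scaled to a common library size by the TMM method. Member results that rest on aged SAHA 1, or on young vehicle 6, which had the lowest miR-146 levels, are given with and without them. Results of the marker lists are given with all libraries only. All 14 neuron markers were tested, and miR-128-3p, brain-enriched, averaged 34920 CPM in young vehicle, so the labelled tissue carried its neuronal miRNAs. In bulk tissue, fewer cells of a type and less RNA per cell cannot be told apart.

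Nearly all counts came from the 5p arms. miR-146a-5p had 56974 counts over the 19 libraries and miR-146a-3p 2, all of them in aged vehicle 2. The 3p arm thus made up 0.00351% of the counts of this precursor (95% Wilson interval 0.000963% to 0.0128%, counting error only). miR-146b-5p had 56208 counts and miR-146b-3p 105, a 3p share of 0.186% (0.154% to 0.226%). miR-155-5p had 557 counts and miR-155-3p 3, a share of 0.536% (0.182% to 1.56%). The 3p arms of miR-146a and miR-155 had no count in 18 and 17 libraries. A count of 0 there allows up to 3 counts, or 0.455 to 0.887 CPM, depending on the library. miR-146b-3p was present in every library but at 1 to 10 counts. These 3 arms did not pass the low-count filter and were not tested. The 3 that passed, out of 509 tested miRNAs, were miR-146a-5p, miR-146b-5p and miR-155-5p.

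The levels of the 3 tested members fell into 2 ranges. In young vehicle, miR-146b-5p averaged 487 ± 90.8 CPM (SD, n = 8) and ranked 109 among all listed miRNAs. miR-146a-5p averaged 396 ± 54.4 CPM there and ranked 127. miR-155-5p averaged 3.10 ± 0.711 CPM and ranked 461, and 11 to 20 counts per young library stood behind it. In all 19 libraries miR-146b-5p exceeded miR-155-5p, and miR-155-5p exceeded miR-146b-3p. Mature lengths are 21 to 23 bases, so length hardly enters these orders, but ligation during library preparation favours some small RNAs over others and its part was not tested.

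miR-146a-5p, the paralogue best known as an NF-kB feedback inhibitor, rose with age. In young vehicle its level ran from 279 to 442 CPM with a median of 414. In the aged vehicle libraries it was 588, 789, 743, 769 and 548 CPM. All 5 aged vehicle libraries thus lay above all 8 young ones, a separation that 0.982% of tested miRNAs showed in that direction. The log2 fold change was 0.80 ± 0.17 (SE, adjusted p = 0.00938 by edgeR's quasi-likelihood test), and it was the only higher call of this comparison (0.196% of tested miRNAs), in which 2.16% were called in either direction. Leaving out each library in turn kept the adjusted p between 0.00663 and 0.0370.

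miR-146b-5p moved less with age. It ran from 282 to 562 CPM in young vehicle, with a median of 516. It was 578, 656, 580, 573 and 569 CPM in aged vehicle. These groups did not overlap either, a separation that 0.982% of tested miRNAs showed in that direction. The margin was small, as aged vehicle 5, at 569 CPM, lay just above young vehicle 8, at 562. The log2 fold change was 0.28 ± 0.13, which did not pass (adjusted p = 0.268 by edgeR). Without young vehicle 6, the library at 282 CPM, it was 0.20.

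miR-155-5p, the low member, had 2.07 to 4.44 CPM in young vehicle with a median of 3.04. In aged vehicle it had 4.30, 7.19, 4.56, 6.65 and 4.13 CPM, from 22 to 36 counts per library. Of the 5 aged vehicle libraries, 3 lay above every young one and the other 2 lay just below young vehicle 4, the highest of the young libraries. The log2 fold change was 0.81 ± 0.35, as large as that of miR-146a-5p, but with this spread it did not pass (adjusted p = 0.247 by edgeR). Fitted on the vehicle groups alone, without the SAHA libraries in the estimate of the spread, it passed (0.81 ± 0.20, adjusted p = 0.0209 by edgeR).

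**Figure D1:**
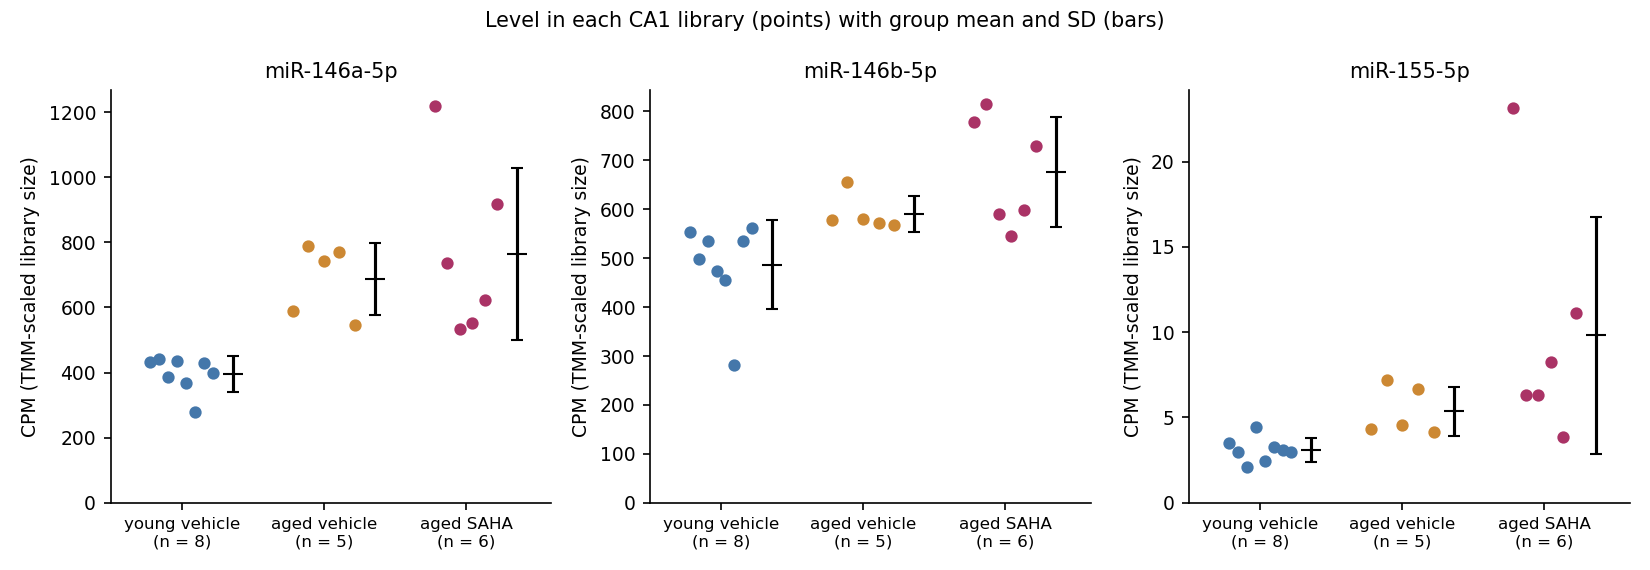
Level of each tested member (y axis, CPM after TMM scaling, from 0) in each library (points), with the group mean and SD (bars), for young vehicle (n = 8), aged vehicle (n = 5) and aged SAHA (n = 6). All aged libraries lie above all young ones for miR-146a-5p, and aged SAHA 1 is the highest point for miR-146a-5p, at 1220 CPM, and for miR-155-5p, at 23.1 CPM.

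The paralogues that share a seed did not move equally with age. Their ratio needs no library scaling, so it was compared directly. miR-146a-5p had fewer counts than miR-146b-5p in all 8 young libraries, with a ratio from 0.709 to 0.988. It had more in 4 of 5 aged vehicle libraries, with a ratio from 0.963 to 1.34. The mean log2 ratio was -0.28 ± 0.17 in young vehicle (SD, n = 8) and 0.20 ± 0.21 in aged vehicle (SD, n = 5). The difference of 0.49 passed (exact permutation test, two-sided, p = 0.00155, or 0.0140 after adjustment over 9 ratio tests). Aged vehicle 5 was the exception with fewer miR-146a-5p than miR-146b-5p counts, and the uncertainty in assigning short reads applies to this ratio.

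**Figure D2:**
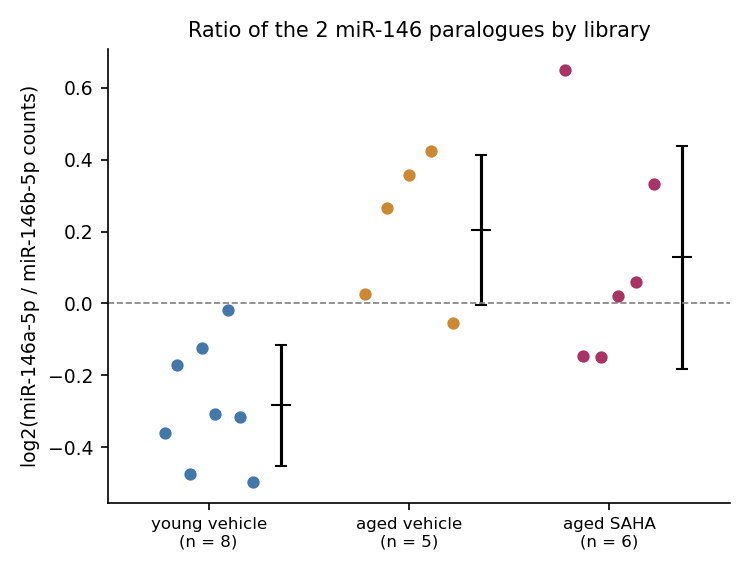
log2 ratio of miR-146a-5p to miR-146b-5p counts (y axis) in each library (points) with group mean and SD (bars), for young vehicle (n = 8), aged vehicle (n = 5) and aged SAHA (n = 6), where the dashed line marks equal counts. All 8 young libraries lie under the line, and 4 of 5 aged vehicle and 4 of 6 aged SAHA libraries lie above it.

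With both counted as 1 seed family, the summed miR-146a-5p and miR-146b-5p rose with age by 0.54 ± 0.14 on the log2 scale (adjusted p = 0.0461 by edgeR). The 6 members together took 0.0877% ± 0.0158 of all miRNA counts in young vehicle (SD, n = 8) and 0.130% ± 0.0136 in aged vehicle (SD, n = 5). That difference had the smallest p this design can give (exact two-sided permutation p = 0.000777, adjusted 0.00117 over 3 comparisons), with 5 of 5 aged libraries above the young ones. The 2 miR-146 members make up nearly all of this share.

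Between aged SAHA and aged vehicle 0 of the 3 tested members passed by edgeR, DESeq2 or limma-voom, and 1, miR-155-5p, had an unadjusted p under 0.05 by edgeR. All 3 log2 fold changes were positive, as were 48.7% of those of all tested miRNAs. In this comparison 99 of 509 tested miRNAs had an unadjusted p under 0.05, and 4.32% were called. miR-146a-5p had 1220, 737, 533, 552, 624 and 918 CPM in aged SAHA 1 to 6, against 548 to 789 CPM in aged vehicle. The SAHA libraries were on both sides of the vehicle range, with 2 of 6 above it. The log2 fold change was 0.15 ± 0.18 (adjusted p = 0.698 by edgeR), and without aged SAHA 1 it was -0.03 ± 0.15.

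miR-146b-5p had 777, 816, 591, 544, 598 and 729 CPM in aged SAHA 1 to 6. Of these, 3 exceeded the highest aged vehicle library and 1 was under the lowest. The log2 fold change was 0.19 ± 0.14 (adjusted p = 0.501 by edgeR).

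miR-155-5p had 23.1, 6.30, 6.30, 8.25, 3.83 and 11.1 CPM in aged SAHA 1 to 6, from 120, 33, 35, 39, 20 and 47 counts. Aged SAHA 1, 4 and 6 lay above every aged vehicle library, and aged SAHA 5 lay under every one. The log2 fold change was 0.87 ± 0.33 and did not pass (adjusted p = 0.128 by edgeR). The value rested in good part on aged SAHA 1: it was 0.40 without that library (adjusted p = 0.363 by edgeR). Without aged SAHA 5, the lowest library, it was 1.03 and passed (adjusted p = 0.0438 by edgeR).

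No ratio passed between aged SAHA and aged vehicle. That of miR-146a-5p to miR-146b-5p differed by -0.08 on the log2 scale (exact permutation p = 0.645, adjusted 0.726), and by -0.18 without aged SAHA 1 to -0.02 without aged SAHA 3. Per count of miR-155-5p there were 93.0 ± 38.4 counts of miR-146a-5p in the 6 aged SAHA libraries (SD) and 129 ± 20.0 in the 5 aged vehicle libraries, a difference of -0.55 in mean log2 ratio (exact permutation p = 0.0714, adjusted 0.129). Without aged SAHA 5 that difference was -0.73 and passed (exact permutation, adjusted p = 0.0429). The 6 members together took 0.146% ± 0.0308 of counts under SAHA (SD, n = 6), above the aged vehicle mean by 0.0165 percentage points (exact permutation p = 0.307, adjusted 0.307). Without aged SAHA 1 that difference was 0.00694 percentage points.

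Against young vehicle, all 3 tested members were higher in aged SAHA. This comparison combines age and SAHA, and it shares libraries with both others, so its values are not a separate line of evidence. miR-155-5p had the largest fold, with a log2 fold change of 1.68 ± 0.31, or 3.20-fold (adjusted p = 0.000776 by edgeR), and 5 of 6 aged SAHA libraries lay above every young one. miR-146a-5p rose by 0.95 ± 0.16, with 6 of 6 above every young library, which 0.982% of tested miRNAs showed (adjusted p = 0.000508 by edgeR). miR-146b-5p rose by 0.47 ± 0.12, with 5 of 6 above (adjusted p = 0.0107 by edgeR). Higher calls made up 5.3% of tested miRNAs here and calls in either direction 13.9%.

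Leaving out each library in turn ended none of these 3 calls. Without aged SAHA 1 the log2 fold changes were 1.21 for miR-155-5p and 0.76 for miR-146a-5p. With aged SAHA 1 and young vehicle 6 both left out, they were 1.22 ± 0.23, 0.70 ± 0.12 and, for miR-146b-5p, 0.34 ± 0.09. The log2 ratio of miR-146a-5p to miR-146b-5p was above that of young vehicle by 0.41 (exact permutation p = 0.00400, adjusted 0.0180), and by 0.31 without aged SAHA 1 (exact permutation, adjusted p = 0.0525). miR-146b-5p fell relative to miR-155-5p, by 0.94 on the log2 scale (exact permutation p = 0.0160, adjusted 0.0479). That call ended with 10 of the 14 libraries left out in turn (aged SAHA 1, 3, 4 or 6, or young vehicle 1, 2, 3, 5, 7 or 8), with the highest adjusted p, 0.126 by exact permutation, and a value of -0.69 without aged SAHA 1.

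**Figure D3:**
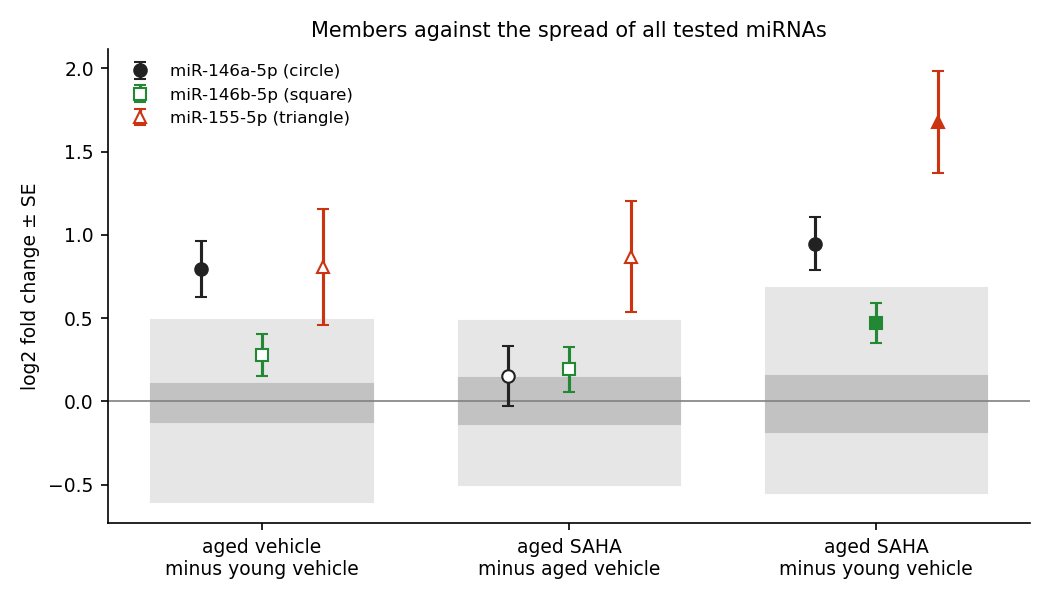
log2 fold change ± SE (y axis) of miR-146a-5p, miR-146b-5p and miR-155-5p in the 3 comparisons, with filled symbols for adjusted p under 0.05 and grey bands for the middle 95% (light) and 50% (dark) of all 509 tested miRNAs. miR-146a-5p is filled in both comparisons with young vehicle, and miR-146b-5p and miR-155-5p only for aged SAHA against young vehicle. No symbol is filled for aged SAHA against aged vehicle.

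Across the libraries the members varied together. miR-155-5p and miR-146a-5p had a Pearson r of 0.85 (Spearman rho 0.863) over log2 CPM of the 19 libraries, and 0.707 once each group's mean was taken off. Leaving out the 2 libraries farthest from the median of miR-146a-5p, aged SAHA 1 and young vehicle 6, gave 0.826. miR-146a-5p and miR-146b-5p had 0.831 (rho 0.853), 0.702 with group means off and 0.774 without those 2 libraries. miR-146b-5p and miR-155-5p had 0.603 (rho 0.70), but only 0.209 with group means off. The r of 0.603 became 0.807 without young vehicle 6 and aged SAHA 2, the farthest for miR-146b-5p, and 0.449 without aged SAHA 1 and 6, the farthest for miR-155-5p. These values describe libraries that share group and depth, and no test is given for them.

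Outside the members, the tested miRNA most like miR-155-5p was miR-142-5p, a miRNA of blood and microglial cells. Its r was 0.90 (rho 0.842), 0.847 with group means off and 0.766 without aged SAHA 1 and 6, the 2 libraries farthest from the median. miR-10a-5p, from a Hox cluster, followed with 0.852, then miR-15a-5p with 0.842, miR-339-5p with 0.819 and miR-219-2-3p, an oligodendrocyte miRNA, with 0.79. Without aged SAHA 1 and 6 these 4 ran from 0.474, for miR-219-2-3p, to 0.756, for miR-10a-5p. For miR-146a-5p the closest were miR-24-3p (r 0.857, rho 0.84), miR-10a-5p (0.809), miR-32-5p (0.808), miR-15a-5p (0.788) and miR-219-2-3p (0.762), which ran from 0.624, for miR-32-5p, to 0.798, for miR-15a-5p, without aged SAHA 1 and young vehicle 6. For miR-146b-5p they were miR-24-3p (0.865, rho 0.821), miR-425-3p (0.838), miR-384-5p (0.772), miR-26b-5p (0.754) and miR-32-5p (0.735). The r of miR-384-5p was 0.387 without young vehicle 6 and aged SAHA 2, the 2 libraries farthest from the median of miR-146b-5p.

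**Figure D4:**
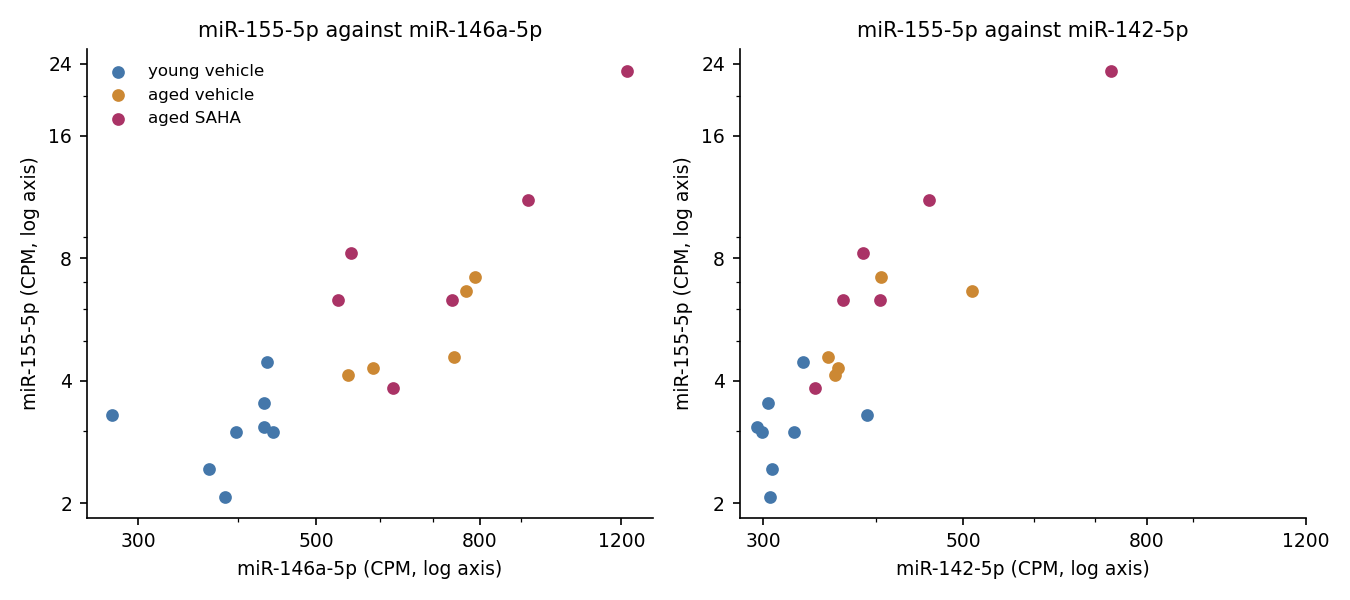
miR-155-5p (y axes) against miR-146a-5p (left) and miR-142-5p (right) in the 19 libraries, in CPM on log axes, coloured by group. Aged SAHA 1 is the highest point on both axes of both panels, and the young libraries lie at the lower left.

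Other miRNAs known to respond to NF-kB or cytokines were followed as a list. Over all tested miRNAs the share of higher calls with age was 0.196%, which is miR-146a-5p alone, so no list without it could hold one by edgeR. Of 34 listed, 29 were tested, and 0 were called higher and 2 lower in aged against young vehicle, by edgeR and by DESeq2 and limma-voom alike, where 5 had an unadjusted p under 0.05. Over all tested miRNAs edgeR called 10 of 509 lower with age. The median log2 fold change of the 29 was -0.01, beside -0.00296 over all tested miRNAs. The lower calls were the arms of miR-181c, which acts in synaptic and glial signalling, with -0.42 ± 0.07 for miR-181c-5p and -0.29 ± 0.06 for miR-181c-3p. In aged SAHA against aged vehicle, where 4.32% of all tested miRNAs were called, edgeR called 3 of the 29: 1 higher, miR-181c-5p at 0.31 ± 0.08, and 2 lower, miR-222-3p at -0.42 ± 0.09 and miR-9-3p, a neuronal miRNA, at -0.28 ± 0.07. In aged SAHA against young vehicle, where 13.9% of all were called, edgeR called 4 of the 29: 1 higher, miR-7b-5p at 0.59 ± 0.19, and 3 lower, miR-9-3p (-0.24 ± 0.06), miR-181c-3p (-0.18 ± 0.06) and let-7e-3p (-0.24 ± 0.08).

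Markers of cells in which these miRNAs are known were measured beside them. The microglia and myeloid list (7 of 8 tested, none at 0) had 0 calls by edgeR, DESeq2 and limma-voom in aged against young vehicle and 1 unadjusted p under 0.05, with 3 of 7 values positive. miR-142-5p came closest, at 320 ± 31.4 CPM in young and 399 ± 66.3 in aged vehicle (0.32 ± 0.14, adjusted p = 0.262 by edgeR). The summed level of that list was 2749 to 3800 CPM in young vehicle, 2945 to 3703 in aged vehicle and 2886 to 5185 in aged SAHA. In the aged groups most of it was miR-21-5p, which averaged 2326 CPM in aged vehicle and 2806 in aged SAHA. In aged SAHA against aged vehicle all 7 values were positive with a median of 0.28, beside -0.00774 over all tested miRNAs. There were 0 calls by edgeR or limma-voom, 1 by DESeq2 and 1 unadjusted p under 0.05. Against young vehicle miR-142-5p was called higher in aged SAHA (0.49 ± 0.13, adjusted p = 0.0165 by edgeR), as were 5.3% of all tested miRNAs. Young vehicle 6 had the highest microglial sum of its group, 3800 CPM, and the lowest miR-146a-5p and miR-146b-5p. It was also the highest young library for the lymphocyte, erythrocyte and oligodendrocyte sums, at 128%, 135% and 102% of their 19-library means. The same held for the NF-kB and cytokine list, at 121%, but not for the endothelial and mural, choroid plexus or neuron sums.

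The oligodendrocyte list (6 of 7 tested, none at 0) had a sum of 3351 to 4521 CPM in young vehicle, 4064 to 5644 in aged vehicle and 3751 to 8126 in aged SAHA. It had 0 calls for age by edgeR, DESeq2 and limma-voom, with 1 unadjusted p under 0.05. In aged SAHA against aged vehicle 5 of 6 values were positive with a median of 0.12, and 0 were called by edgeR or limma-voom and 1 by DESeq2, with 1 unadjusted p under 0.05. In aged SAHA against young vehicle edgeR made 2 higher calls, miR-219-2-3p (0.61 ± 0.13) and miR-32-5p (0.44 ± 0.14), where DESeq2 made 4 and limma-voom 1. Over all tested miRNAs edgeR called 5.3% higher in that comparison. In aged SAHA 1, the highest library for miR-146a-5p and miR-155-5p, the sums of several lists were also high. They were 5185 CPM for microglia, 8126 for oligodendrocytes and 61491 for endothelial and mural cells. These were 156%, 184% and 168% of their means over the 19 libraries. The endothelial and mural sum was higher still in aged SAHA 3, at 62081 CPM, and in young vehicle 4, at 66283. miR-146a-5p was at 533 and 435 CPM in those libraries. The neuron sum was 89.3% of its mean in aged SAHA 1, inside the range of the aged SAHA group, 85.8% to 93.0%. The part of these cell types in the members' values was not tested.

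Markers of other cell types were taken as lists in the same way. Endothelial and mural markers (11 of 16 tested, none at 0) had 2 of 11 values positive and 0 calls by edgeR with age, with miR-10a-5p, at 0.88 ± 0.26, the single unadjusted p under 0.05 (adjusted p = 0.0796 by edgeR), and 1 call by DESeq2 and 0 by limma-voom. Their sums were 26190 to 66280 CPM in young vehicle, 26370 to 53900 in aged vehicle and 27040 to 62080 in aged SAHA. In aged SAHA against aged vehicle 10 of 11 values were positive with a median of 0.32, and 0 were called by edgeR, DESeq2 or limma-voom, with 0 unadjusted p under 0.05. edgeR called miR-10a-5p higher in aged SAHA against young vehicle (1.35 ± 0.25), as it did 5.3% of all tested miRNAs. Lymphocyte markers (7 of 7 tested) had 1 lower call with age, miR-150-5p at -0.36 ± 0.07, where edgeR called 10 of 509 tested miRNAs lower. In aged SAHA against young vehicle miR-150-5p was also called lower (-0.56 ± 0.06, adjusted p = 4.42e-06 by edgeR), while miR-142-5p, on this list too, was called higher. There edgeR called 44 of 509 tested miRNAs lower. Their sum, 120080 to 176650 CPM in young and 114200 to 132270 in aged vehicle, is mostly miR-181a, which neurons also hold. Erythrocyte markers (5 of 5 tested) had 0 of 5 values positive with age and 0 calls by edgeR, DESeq2 and limma-voom, with 2 unadjusted p under 0.05. Their sums were 2785 to 4050 CPM in young, 2622 to 3121 in aged vehicle and 2363 to 3172 in aged SAHA. Choroid plexus and ciliated epithelium markers (11 of 19 tested, 4 with no count in any library) had 0 calls with age by edgeR and DESeq2, 2 by limma-voom and 3 unadjusted p under 0.05. Their sums were 2736 to 4377 and 2607 to 3965 CPM in the vehicle groups. Neuron markers (14 of 14 tested) had 0 calls with age by edgeR, DESeq2 and limma-voom and 1 unadjusted p under 0.05. In aged SAHA against aged vehicle edgeR made 3 lower calls of them, where it called 16 of 509 tested miRNAs lower. Their sum was 74795 to 81135 CPM under SAHA, against 87707 to 93301 in aged vehicle. Much of that gap was miR-128-3p, 1 of the 3 calls. It averaged 25440 ± 2299 CPM under SAHA and 34550 ± 3221 in aged vehicle (SD). Against aged vehicle, values under SAHA were positive for 5 of 7 lymphocyte, 2 of 5 erythrocyte, 6 of 11 choroid plexus and 3 of 14 neuron markers. The lists share miRNAs, so their counts and sums are not separate. miR-142-5p and miR-342-5p are on both the microglia and lymphocyte lists, and miR-9-3p is on both the NF-kB and neuron lists.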

How the data were processed

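Each deposited file holds whole-number counts per mature miRNA name for 1 library, not normalised by the authors. The submitters' processing notes list CASAVA (1.8.2), cutadapt, STAR and HTSeq, with mm10 as the build, in no order and with no settings. The annotation release and the handling of reads with several matches are not stated there. The 4 HTSeq summary lines per file were all 0 and stayed out.

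Of 1148 miRNAs, 509 passed filterByExpr (counts of at least 10, total at least 15). The 19 libraries were scaled by TMM and entered 1 edgeR fit (version 4.0.16, R 4.3.3), with a term for each group and robust quasi-likelihood F tests. Calls had an adjusted p under 0.05 (Benjamini-Hochberg, all tested miRNAs). Each SE is the absolute log2 fold change over the square root of F. Ratios took a pseudocount of 0.5 and exact permutation tests enumerating every split; 3 of 6 planned ratios had members averaging at least 10 counts.

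Members, lists and rules were chosen with earlier results of these data known. From each of 8 lists the rule named up to 4 called miRNAs per comparison, or else the 2 with the smallest p, of which the text prints those that bear on the members, and 5 miRNAs per tested member by the highest r of log2 CPM (prior count 2). Reads carry no molecular identifiers, so intervals cover counting error only. DESeq2 1.42.0 and limma-voom (limma 3.58.1) were among the alternatives. The script was tested on simulated data. Libraries of a group all differed by more than sampling noise (53 pairs, chi-square at least 26.7 times its degrees of freedom).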

Additional observations from a re-analysis of the deposited data

Results flagged for a closer look

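Of 21 sets of values looked at (each tested member, each ratio and the share of the 6 members, in each group), 4 held a library far from the others of its group by Dixon's test. Chance gives this in about 1 of 20 independent sets. The ratios and the share reuse the members' counts, so 4 of 21 cannot be weighed against that rate. Young vehicle 6 was the lowest of its group in 3 of these 4 sets: miR-146a-5p at 278.8 CPM, where the next library had 367.9, miR-146b-5p at 282.3 CPM, where the next had 455.8, and the share of the 6 members at 0.05321% of counts, where the next had 0.08006%. Its miR-155-5p, at 3.30 CPM, was not low. Aged vehicle 2 was the highest of its group for miR-146b-5p, at 656.1 CPM, where the other 4 libraries lay between 568.7 and 579.9 CPM. Aged SAHA 1 was not set apart by this test for any member. Its miR-155-5p was still far up, at 23.11 CPM, where the next library had 11.12 and the lowest 3.83.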

How the results depend on the processing

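Over all alternatives the members' calls against young vehicle held, apart from those given here, and the cause of each change was not tested unless fewer libraries entered. Counts of called miRNAs for age were 20 with DESeq2, 23 with limma-voom, 19 with only the groups compared and 18 with aged SAHA 1 and young vehicle 6 left out, a choice made with results known. For SAHA they were 46 with DESeq2, 46 with limma-voom, 10 with arms and copies summed and 37 without those 2 libraries, and 11 (without aged SAHA 6) to 33 (without aged SAHA 1) with each library left out, including 13 without aged vehicle 1 and 14 without aged vehicle 3. miR-155-5p passed for age with only the groups compared (0.81). With miR-146a-5p and miR-146b-5p summed, the value set beside miR-146b-5p passed for age (0.54). For SAHA, leaving out each library gave -0.03 to 0.24 for miR-146a-5p and 0.40 to 1.03 for miR-155-5p, and miR-146a-5p was -0.0326 without aged SAHA 1 and young vehicle 6 and -0.0320 without aged SAHA 1 alone. Log2 ratios with each library left out, against young vehicle, were 0.31 to 0.47 for miR-146a-5p over miR-146b-5p in aged SAHA. For miR-146a-5p over miR-155-5p they were -0.0619 (without young vehicle 6, and also under 0 without young vehicle 4 or aged vehicle 3) to 0.10 in aged vehicle and -0.70 (without aged SAHA 5, then a call) to -0.38 in aged SAHA, and for miR-146b-5p over miR-155-5p -0.59 (without young vehicle 6, then a call) to -0.36 and -1.13 to -0.69. For miR-146a-5p over miR-155-5p in aged SAHA against aged vehicle they were -0.73 to -0.41. Without aged SAHA 1 and young vehicle 6 the age values were -0.0619 for miR-146a-5p over miR-155-5p and -0.59, a call, for miR-146b-5p over miR-155-5p, and with a pseudocount of 1 the latter missed the threshold in aged SAHA against young vehicle (-0.92). Low counts limit miR-155-5p, and the 3p arms could not be tested.

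The replicate number was tried as a block. Same-numbered libraries showed no steady shared deviation (r from -0.317 to 0.314). Against young vehicle, 2 of 6 aged SAHA libraries, and 0 in the other comparisons, correlated best with their own number. Pairing by number was thus not seen, but these few correlations carry no test and cannot exclude it. With the replicate block the counts of calls were 8 in aged against young vehicle, 15 between the aged groups and 58 in aged SAHA against young vehicle. miR-146a-5p for age was then 0.82 (adjusted p = 0.0926 by edgeR). No other call of a tested member changed, and the ratios were not fitted with a block.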
